A study of Mus musculus with 4 samples.

Results

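Macrophage identity genes were taken as Csf1r, Adgre1, Cd68, C1qa, C1qb, C1qc, Spi1, Itgam and Lyz2, which are 9 of the 18193 genes that have at least 1 probe set of their own on the Affymetrix Mouse 430 2.0 array. Members were every probe set whose platform gene symbol is one of these names, which gave 13 of the 45037 probe sets that are not controls, and 0 of the 13 name a further gene. The study compared cells that carry both CD4 and CD8 (double-positive, DP), a stage of T-cell development, from normal thymus (genotype WT) with DP cells of peripheral tumours, called thymoma in the labels, that over-express Notch1-IC (genotype T-ALL, T-cell acute lymphoblastic leukaemia). Notch1-IC is the intracellular, active part of the Notch1 receptor. Both groups have the labelled background WT C57/BLACK6, and each has 2 arrays, numbered replicate 1 and 2. Of the labels, 1 (sample type) names tumour cells for all 4 arrays, whereas the titles, sources and genotypes separate the groups, and the titles were followed. Age, sex, the number of animals, how Notch1-IC was introduced and how DP cells were isolated are not stated by the sources.

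Macrophages are phagocytes that depend on signals through the receptor encoded by Csf1r, and their differentiation is directed by the transcription factor PU.1, the product of Spi1. They carry the surface proteins F4/80 (Adgre1) and CD11b (Itgam), hold CD68 and lysozyme (Lyz2) in or for the endosome and lysosome pathway, and are a main source of complement C1q, which is built from the products of C1qa, C1qb and C1qc. In the thymus, macrophages clear thymocytes that die during selection. DP thymocytes belong to the T lineage, in which Spi1 is switched off at an early stage.

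Most of these genes were higher in the tumour arrays. Csf1r, C1qa, C1qb, C1qc, Lyz2 and Adgre1 rose, whereas Cd68, Spi1 and Itgam did not pass the test. By probe set, 10 of 13 were higher and 0 lower at an adjusted p below 0.05 (limma with a trend and robust prior, Benjamini-Hochberg over 45037 probe sets), against 11.3% of all probe sets called higher. By gene, 6 of 9 were higher, against 16.8% of all genes with at least 1 higher and no lower probe set. The median log2 difference was 3.46 over the 13 probe sets and -0.02 over all probe sets. Where a group lay wholly at or below background, every value of that probe set below its array's background was raised to it. These medians were then 3.29 and 0.14. In 12 of the 13 probe sets both tumour arrays lay above both normal arrays, as in 27.6% of all probe sets. The call depends on how the spread is estimated. With limma's default prior 0 of the 13 and 0 of all 45037 probe sets passed, although 11337 had an unadjusted p below 0.05. With that prior and only the most intense probe set of each gene, 4 of 9 member genes passed (Csf1r, C1qa, C1qb and Lyz2), against 4.17% of all genes.

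The arrays and labels were checked as follows. Background, the highest intensity of an array among 27 controls that match bacterial genes (dap, lys, phe, thr and trp), lay between 12.3 and 17.8, and 51.0% to 59.0% of probe sets exceeded it. Notch1 rose by 2.62 ± 0.07 (log2, SE, n = 2 arrays per group) and Dtx1, a Notch target, by 6.27 ± 0.10. The DP markers Cd4 and Cd8a were far above background on every array but fell by 2.09 ± 0.11 and by 2.75 ± 0.07 in the tumour arrays, all with limma adjusted p of at most 1.4e-06. Over all probe sets 5084 were higher and 5189 lower, or 2074 higher and 11539 lower with the arrays scaled to the BioB, BioC and BioD hybridization controls, which moved the median of all probe sets from -0.02 to -0.63. The ratio of 3' to 5' beta-actin control probe sets was 1.20 and 1.28 in the normal arrays and 2.46 and 2.53 in the tumour arrays, and its part in the values below was not tested. Whether a group's arrays come from separate animals is not labelled, so p-values measure only the spread between these arrays, which may be technical. An exact permutation test of 2 against 2 arrays cannot give a two-sided p below 0.333. Tumour against normal cannot be told apart from peripheral site against thymus. In such bulk RNA, more cells of a type and more RNA per cell cannot be told apart.

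Among the surface receptors, Csf1r, the receptor for the macrophage growth factors CSF1 and IL-34, had the largest fold difference of the 4 member probe sets that were above background on every array. On probe set 1419872_at its intensity was 20.5 and 17.9 in the normal arrays and 550 and 625 in the tumour arrays. The normal values lay just above background and the tumour values far above it, with no overlap. The difference was 4.94 ± 0.19 on the log2 scale (95% interval 4.50 to 5.38), a 30.6-fold difference (limma adjusted p = 3.07e-07).

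The other Csf1r probe sets moved the same way by unequal amounts. Probe set 1419873_s_at, of a class that may bind several transcripts, read 2.30 and 3.42 in the normal arrays, both below background, and 79.2 and 101 in the tumour arrays. It was at least 6.38-fold higher, the bound being the tumour mean over the normal mean with each normal array raised to its background level (limma adjusted p = 0.000195). Here and below, an adjusted p given with such a bound tests the log2 difference of the values as deposited, not the bound. Probe set 1423593_a_at read 29.6 and 26.9 in the normal arrays and 88.4 and 66.9 in the tumour arrays. Its difference was 1.45 ± 0.30, a 2.72-fold difference (adjusted p = 0.00605), and the call ended without tumour replicate 1 (adjusted p = 0.0538) and with spike control scaling (0.84, adjusted p = 0.0609). The change on 1419872_at exceeded that on 1423593_a_at by 3.49 (log2), with both tumour arrays above both normal arrays in the ratio of the probe sets (exact permutation p = 0.333, the smallest possible). The Csf1r values therefore differ in size by probe set, not in direction.

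Adgre1 encodes F4/80, an adhesion receptor used to identify mouse macrophages. Its intensity was 10.2 and 23.9 in the normal arrays, with only replicate 2 above background, and 60.1 and 41.6 in the tumour arrays. The tumour arrays were both higher, but on the log2 scale the normal arrays differed from each other by more than the tumour arrays did. The log2 difference of 1.68 ± 0.49 passed narrowly (3.21-fold, limma adjusted p = 0.0357). The call ended without normal replicate 1 (1.07, adjusted p = 0.203), tumour replicate 1 (adjusted p = 0.204) or tumour replicate 2 (adjusted p = 0.0881), and with spike control scaling (1.08, adjusted p = 0.149).

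Itgam, the alpha chain of the integrin CD11b/CD18 of macrophages, neutrophils and NK cells, read 13.3 and 18.1 in the normal arrays and 21.9 and 0.58 in the tumour arrays. The groups overlapped, and 1 array of each group lay below background. The log2 difference was -2.12 ± 1.57 (95% interval -5.66 to 1.41, limma adjusted p = 0.418). Its sign rested on tumour replicate 2, since without that array the difference was 0.49 and with values raised to background it was 0.01. The beta chain with which Itgam pairs, Itgb2, is shared with other leukocyte integrins and is listed here with the complement receptors.

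**Figure D1:**
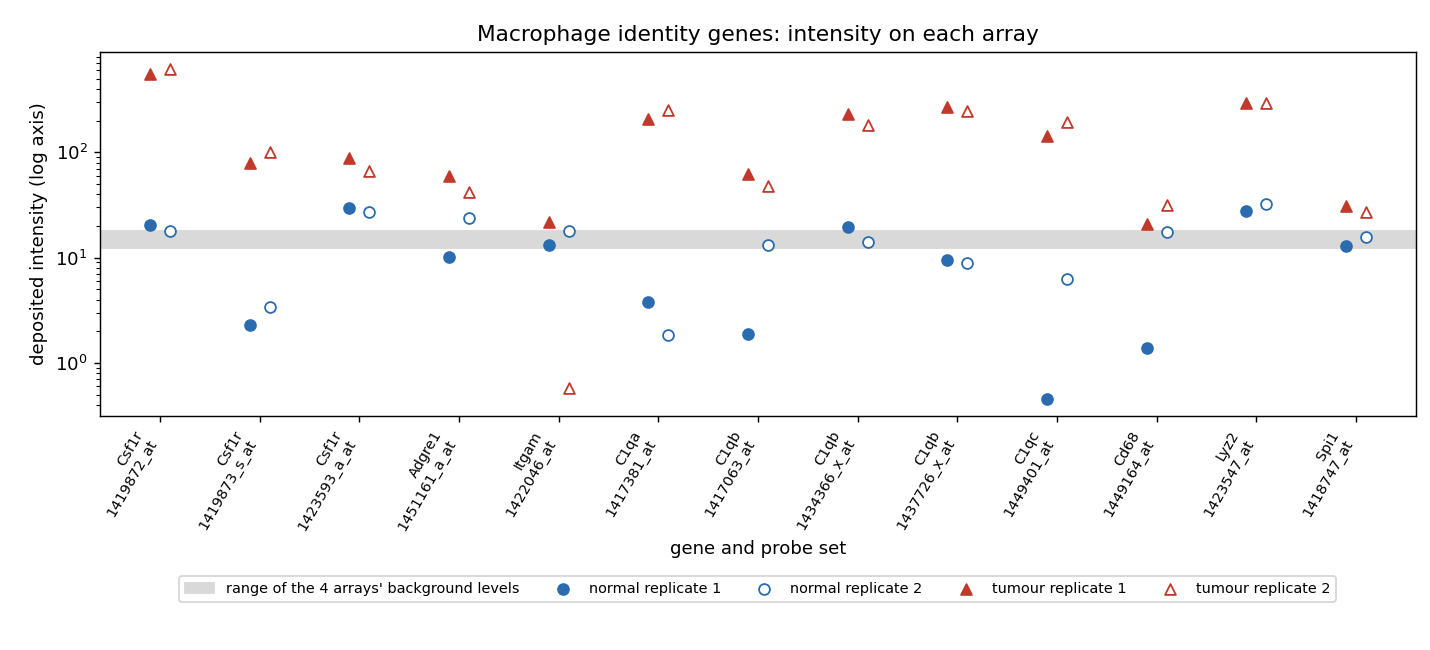
Deposited intensity (vertical log axis) of the 13 member probe sets on the 2 normal (circles) and 2 tumour (triangles) arrays, with the range of the arrays' background levels, 12.3 to 17.8, as a grey band. For C1qa both normal arrays lie below the band (3.77 and 1.85) and both tumour arrays above it (205 and 255), while the Itgam symbols of the groups overlap.

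Spi1 encodes PU.1, the transcription factor that myeloid and B-lineage development require. It read 12.9 and 15.7 in the normal arrays and 30.6 and 27.3 in the tumour arrays. Both tumour arrays were above both normal arrays, all near background. The log2 difference of 1.02 ± 0.48 (95% interval -0.06 to 2.11) did not pass (limma adjusted p = 0.182), and it was 0.42 with spike control scaling. A 2.03-fold difference was thus not resolved at this spread.

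The 3 chains of complement C1q, the recognition unit that starts the classical pathway, were among the clearest rises. RefSeq places C1qb, C1qc and C1qa next to each other on chromosome 4, with no other protein-coding gene between them. C1qa read 3.77 and 1.85 in the normal arrays, both below background, and 205 and 255 in the tumour arrays. It was at least 16.3-fold higher (limma adjusted p = 1.16e-05). C1qc read 0.45 and 6.29 in the normal arrays, both below background, and 144 and 193 in the tumour arrays. It was at least 11.9-fold higher (adjusted p = 0.00121), and the call ended without tumour replicate 2 (adjusted p = 0.0573). For both genes the normal signal is thus a bound and the groups were far apart.

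C1qb was measured by 3 probe sets, all higher in the tumour arrays. On 1434366_x_at, the only one above background on all 4 arrays, it read 19.6 and 14.2 in the normal and 230 and 180 in the tumour arrays, a difference of 3.61 ± 0.28 and 12.2-fold (limma adjusted p = 1.52e-05). On 1437726_x_at it read 9.58 and 8.85, both below background, against 269 and 248, at least 18.5-fold higher (adjusted p = 2.36e-06). Both are of the class that may bind other transcripts. Probe set 1417063_at, which is not, read 1.88 and 13.2 in the normal and 62.1 and 48.1 in the tumour arrays, a difference of 3.46 ± 0.86 (adjusted p = 0.0158). That last call ended without tumour replicate 1 (adjusted p = 0.152) or tumour replicate 2 (adjusted p = 0.112), and without normal replicate 1 the difference was 2.05. All 3 probe sets thus gave the same direction, and their tumour and normal arrays did not overlap.

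Of the genes of the endosome and lysosome pathway, Lyz2, the lysozyme of macrophages and neutrophils, was above background on every array. It read 27.6 and 32.1 in the normal arrays and 290.9 and 291.4 in the tumour arrays. The difference was 3.29 ± 0.20 (95% interval 2.83 to 3.75), a 9.78-fold rise (limma adjusted p = 3.52e-06). Its closely similar neighbour Lyz1, named after its values were seen, rose by 4.46 ± 0.15 on 1436996_x_at (35.4 and 34.7 against 784 and 763) and by 3.14 ± 0.40 on 1439426_x_at, both of the class that may bind other transcripts. On 1450822_at, the only Lyz1 probe set outside that class, all 4 arrays lay below background. Signal of Lyz1 and Lyz2 cannot be assigned with certainty to either gene.

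Cd68, a heavily glycosylated protein of late endosomes in macrophages, read 1.38 and 17.7 in the normal and 20.9 and 31.5 in the tumour arrays. The tumour arrays were both higher, but the highest normal value lay close to the lowest tumour value. The log2 difference of 2.38 ± 1.13 (95% interval -0.18 to 4.93) did not pass (limma adjusted p = 0.188). Normal replicate 1, which lay below background, sets its size. The difference was 0.54 without that array, and 4.22 without normal replicate 2, when it passed (adjusted p = 0.0380).

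**Figure D2:**
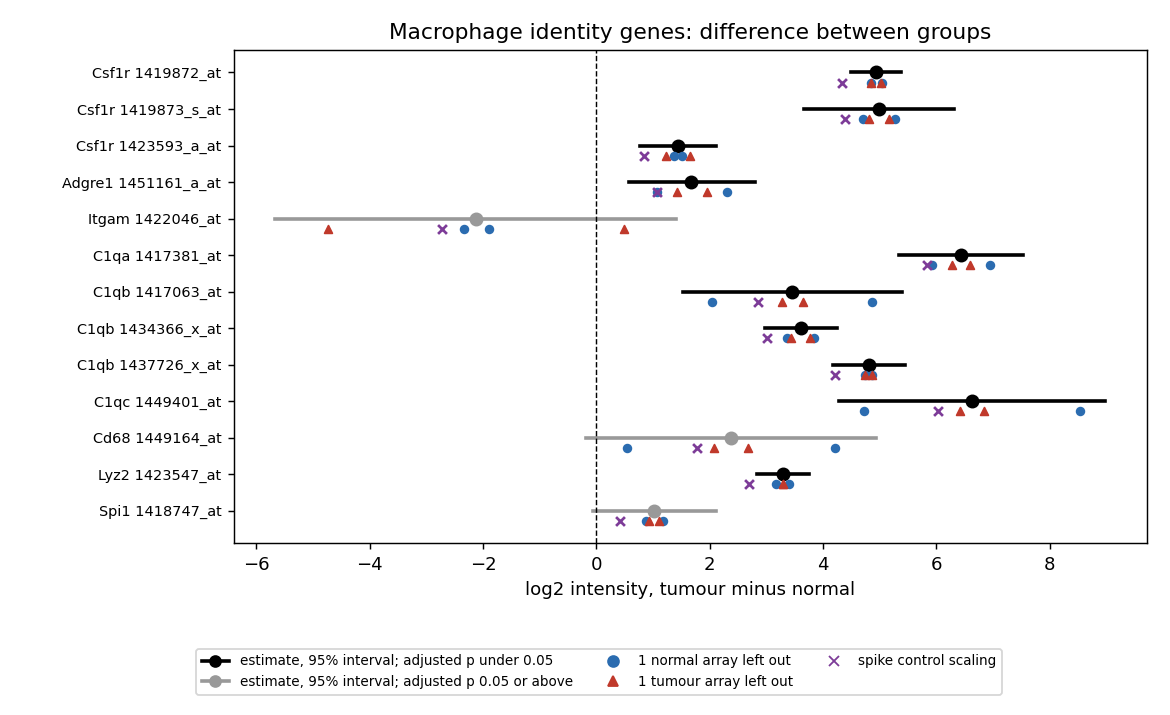
Log2 difference in intensity, tumour minus normal (horizontal axis), for each member probe set, with its 95% interval (line) in black where the adjusted p is under 0.05 and grey otherwise. Smaller symbols give the difference with 1 array left out or with spike control scaling. The intervals of Csf1r on 1419872_at (4.50 to 5.38) and Lyz2 (2.83 to 3.75) are narrow, whereas the Itgam estimate is -2.12 with all arrays and 0.49 without tumour replicate 2.

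Sequence before the gene start was available for 5 of the 9 members in RefSeq's table (GRCm38.p6): C1qb, C1qc, Lyz2, Cd68 and Itgam. The 250 bases before the start are shown for the 3 of these that rose, because PU.1 is known to bind purine-rich sites at many macrophage genes. They lie at chr4:136886201-136886450 (C1qb), chr4:136892915-136893164 (C1qc) and chr10:117282273-117282522 (Lyz2), all on the minus strand and written 5′ to 3′ along the gene. Capitals mark matches on either strand to GAGGAA or AGGAAGT, letters found in PU.1 sites.
C1qb: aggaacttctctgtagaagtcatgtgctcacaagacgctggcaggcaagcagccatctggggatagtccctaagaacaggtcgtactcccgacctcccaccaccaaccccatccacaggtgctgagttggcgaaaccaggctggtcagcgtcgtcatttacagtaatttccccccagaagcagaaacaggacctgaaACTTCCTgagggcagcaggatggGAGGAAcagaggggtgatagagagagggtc
C1qc: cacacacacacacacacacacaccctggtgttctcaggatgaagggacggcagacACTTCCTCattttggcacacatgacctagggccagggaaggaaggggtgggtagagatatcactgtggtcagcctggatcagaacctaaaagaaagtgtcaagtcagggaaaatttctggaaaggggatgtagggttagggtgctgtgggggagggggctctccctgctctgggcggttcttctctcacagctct
Lyz2: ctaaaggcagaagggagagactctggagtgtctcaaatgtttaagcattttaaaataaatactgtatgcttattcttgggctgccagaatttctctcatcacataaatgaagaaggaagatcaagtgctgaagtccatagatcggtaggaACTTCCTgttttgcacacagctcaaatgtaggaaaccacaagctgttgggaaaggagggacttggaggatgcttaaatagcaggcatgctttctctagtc

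AGGAAGT stood once in each of these 3 sequences, on the strand opposite the gene, with its match beginning 53 bases before the start of C1qb, 195 before that of C1qc and 100 before that of Lyz2. In C1qc a GAGGAA match overlaps it, and C1qb holds a separate GAGGAA 30 bases before its start. Cd68 held 1 GAGGAA and Itgam 2, neither with AGGAAGT. For scale, 7.69% of the 32851 sequences of this length in the table hold AGGAAGT, 23.3% hold GAGGAA and 27.3% hold either. A match is a description of letters and not a measured binding site.

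The protein-coding neighbours of the members on the chromosome, were looked up after the member values were known. Of 12 measured neighbours that are not members, 5 were higher, 1 lower and 6 neither, beside 16.8% of all genes higher and 14.4% lower. The 5 include Lyz1, whose signal cannot be assigned apart from that of the member Lyz2. Pdgfrb, the receptor for a platelet-derived growth factor and the gene next to Csf1r on chromosome 18, read 28 and 25.2 in the normal and 3022 and 3439 in the tumour arrays. That is a 121-fold difference (6.92 ± 0.13, limma adjusted p = 1.42e-08), whereas Hmgxb3 on the other side of Csf1r differed by 0.45 ± 0.14 (adjusted p = 0.0429). Itgax, the CD11c gene next to Itgam, rose by 1.95 ± 0.36 (adjusted p = 0.00326) while Itgam did not pass. Both neighbours of Spi1, Slc39a13 and Mybpc3, did not pass (0.00 ± 0.79 and -0.32 ± 0.54).

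Likeness to Csf1r on probe set 1419872_at was taken for 6675 genes, none a member, whose mean log2 reached 7 in the higher group. The most alike over the 4 arrays were Mrc1, Nrarp, Ifitm2, Elavl4 and Sertad4. Likeness was the Euclidean distance between log2 values, each gene centred on its own mean, and lay between 0.19 and 0.35. With 4 arrays it reflects little more than a similar group difference, and the places of Mrc1 and Elavl4 are not settled, since both normal arrays of each lay below background. The place of Ifitm2 is not settled either, since its normal replicate 1 lay below background. Mrc1, the mannose receptor of macrophages, read 14.1 and 10.2 in the normal arrays, both below background, and 344 and 389 in the tumour arrays. Nrarp, a feedback inhibitor of Notch, read 78.2 and 77.6 against 2390 and 2865. The differences were 4.75 ± 0.23 for Ifitm2 and 5.16 ± 0.21 for Sertad4, against 4.94 for Csf1r on 1419872_at and 1.45 on 1423593_a_at. Elavl4, below background in both normal arrays, was at least 9.95-fold higher.

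Beside Csf1r, the ligands CSF1 and IL-34 and related growth factor genes of blood cells (Csf2, Csf2ra, Csf2rb, Csf3r, Kit and Flt3) were examined as a list, of which only the ligands belong to the CSF1 receptor itself. Of these 8 measured genes, 3 were higher and 0 lower (all genes: 16.8% higher and 14.4% lower), with a median log2 difference of 1.07, or 0.51 with dim genes at their bounds. Csf2rb, the shared beta chain of the GM-CSF, IL-3 and IL-5 receptors, was at least 5.28-fold higher (limma adjusted p = 0.000802). Csf3r, the G-CSF receptor of neutrophils, was at least 1.99-fold higher (adjusted p = 0.0319). Csf1, the ligand of Csf1r, passed on 1 of its 4 probe sets, 1460220_a_at, at 4.38 and 2.67 in the normal and 28.03 and 28.87 in the tumour arrays (at least 2.03-fold, adjusted p = 0.0240), and its most intense probe set differed by 1.31 ± 0.48 (adjusted p = 0.0851). Il34, the other ligand, read 30.9 and 27.4 against 21.7 and 30.8, with overlapping groups. The calls of this list depended on single arrays, and at a threshold of 0.01 only 1 of its genes was higher and 0 were lower.

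Transcription factors that act beside PU.1 in myeloid cells went both ways. Of 9 measured, 4 were higher and 2 lower, beside 16.8% of all genes higher and 14.4% lower, with a median of 0.73. Irf4, which pairs with PU.1 on DNA in B cells, read 31.1 and 17.1 in the normal and 342 and 324 in the tumour arrays (3.85 ± 0.29, limma adjusted p = 1.01e-05). Its relative Irf8, needed for monocytes and dendritic cells, rose by 2.17 ± 0.30 (adjusted p = 0.000539). Cebpb rose by 2.29 ± 0.15 (adjusted p = 4.6e-06), and Cebpa, a factor of granulocyte and macrophage progenitors, was at least 3.94-fold higher (adjusted p = 0.00573). Gfi1 and Egr2 fell by 0.73 ± 0.11 and by 1.75 ± 0.18 (adjusted p = 0.000974 and 7.33e-05). Egr2 and Gfi1 are also expressed in thymocytes, where both lay far above background in the normal arrays.

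Of 9 measured complement genes other than C1q, 2 were higher and 1 lower, near the shares over all genes (16.8% and 14.4%), with a median of 0.34, or 0.25 with dim genes at their bounds. C1ra and C1s1, the proteases that join C1q to form C1, lay at or below background on all 4 arrays on their most intense probe sets. The 2 higher genes, Cfp (properdin, at least 2.32-fold, limma adjusted p = 0.0212) and C3ar1 (a receptor for a C3 fragment, at least 1.46-fold, adjusted p = 0.0352), each passed only on a probe set that is not their most intense, and the count fell to 1 without normal replicate 1 and to 0 without any of the other arrays. With background as a floor only 1 gene of this list was called higher. On the C3ar1 probe set that passed, tumour replicate 1 (16.5) also lay below background. Itgb2, the CD18 chain, read 2290 and 1831 in the normal and 1005 and 880 in the tumour arrays, and fell by 1.12 ± 0.12 (limma adjusted p = 8.24e-05).

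Of 27 other macrophage genes measured, 14 were higher and 1 lower, beside 16.8% of all genes higher and 14.4% lower. The median log2 difference was 2.32, or 1.13 with dim genes at their bounds, beside 0.09 and 0.14 over all genes. Cd163, a scavenger receptor for haemoglobin complexes, read 0.62 and 0.28 in the normal arrays, both below background, and 164.7 and 163.5 in the tumour arrays, at least 11.7-fold higher (limma adjusted p = 0.000131). Mrc1 was at least 26.2-fold higher (adjusted p = 1.37e-06). On the most intense probe set of each, Tlr4, Marco, Vsig4, Siglec1 and Trem2 lay at or below background on all 4 arrays. The lower gene, Axl, passed only on a probe set at or below background on all 4 arrays, and differed by 0.20 ± 0.38 on its most intense one. The summed intensity of the 27 genes was 342.7 and 339.5 in the normal and 2016 and 2043 in the tumour arrays, and that of the 9 members was 109.7 and 147.7 against 1554 and 1644.

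**Figure D3:**
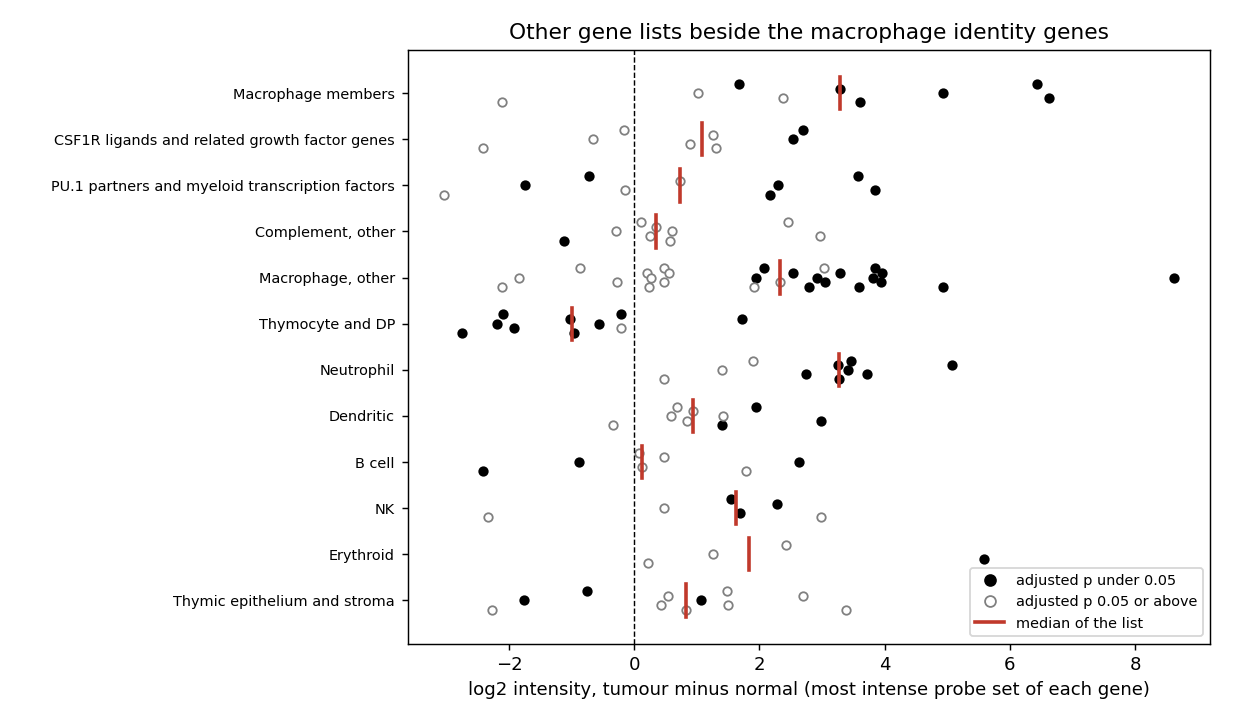
Log2 difference, tumour minus normal (horizontal axis), of each measured gene on its most intense probe set, by gene list; filled points have an adjusted p under 0.05, open points do not, and the red bar is the list's median. The member genes (median 3.29) and the neutrophil genes (median 3.26) have the highest medians drawn, and the thymocyte and DP genes a median of -1.

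Markers of other cells were measured beside the members because several members are not exclusive to macrophages. Over all genes, 16.8% were called higher and 14.4% lower, and the counts below are to be read beside these shares. Sums and statements of signal at or below background, here and for the remaining lineages, use each gene's most intense probe set. Of 10 neutrophil markers, 7 were higher and 0 lower, and their summed intensity was 199.6 and 261.5 in the normal and 2169 and 2215 in the tumour arrays, with only Cxcr2 at or below background throughout. S100a8 rose by 3.72 ± 0.16 (limma adjusted p = 4.49e-07) and Mmp9 by 3.46 ± 0.36 (adjusted p = 9.7e-05). The S100a8 probe set is of the class that may bind several transcripts. Mpo and Elane did not pass, and their groups overlapped. Of 9 dendritic markers 3 were higher and 0 lower, with H2-Aa, an MHC class II chain, at 2.98 ± 0.21 and Cd74, its chaperone, at 1.40 ± 0.23 (adjusted p = 6.96e-06 and 0.00152) and Itgax as above. Zbtb46, Cd209a, Xcr1, Siglech, Ccr7 and Batf3 were called in neither direction, and the list's median was 0.93, or 0.26 with dim genes at their bounds. The dendritic sum was 269.3 and 280.7 against 869 and 1029, of which H2-Aa gave 61.2 and 71.7 against 425 and 646. The H2-Aa probe set is of the class that may bind other transcripts. Of 6 NK markers 3 were higher and 0 lower, namely Gzma (2.28 ± 0.07, adjusted p = 5.75e-08), Klrd1 (1.69 ± 0.43, adjusted p = 0.0187) and Nkg7 (1.55 ± 0.21, adjusted p = 0.000458), with Ncr1 at or below background throughout. The NK sum was 1128 and 1127 in the normal and 5274 and 5268 in the tumour arrays, most of it from Gzma (1034 and 1035 against 5030 and 5040).

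For the remaining lineages, counts are to be read beside the 16.8% of all genes called higher and 14.4% called lower, and those of the B-cell and the epithelial and stromal markers lie near these shares. Of 7 B-cell markers 1 was higher and 1 lower. Cd79b, part of the B-cell receptor, fell by 2.42 ± 0.18 and Cd22, a B-cell lectin, rose by 2.63 ± 0.41 (limma adjusted p = 1.11e-05 and 0.00114), while Cd79a and Pax5 lay at or below background throughout. Ighm differed by -0.88 ± 0.08 on its most intense probe set but others passed in the opposite direction. The B-cell sum was 5422 and 4778 in the normal and 2865 and 2673 in the tumour arrays, most of it from Ighm (5040 and 4425 against 2662 and 2463). Of 4 erythroid markers 1 was higher, the haem synthesis gene Alas2 (at least 5.97-fold, adjusted p = 0.000339), and Klf1, below background in both normal arrays (11.7 and 8.18 against 18.4 and 29.9), did not pass (adjusted p = 0.204), with Hba-a1 at or below background throughout and a sum of 25.95 and 16.39 against 119 and 156. Of 11 epithelial, stromal and vessel markers 2 were higher and 2 lower. Pecam1, of vessel cells and leukocytes, fell by 0.76 ± 0.17 and Epcam, of epithelium, by 1.76 ± 0.29 (adjusted p = 0.00857 and 0.00176). The keratin Krt5 rose by 1.07 ± 0.31 (adjusted p = 0.0335), Krt8 was called higher on a probe set other than its most intense, with Psmb11 and Col1a1 at or below background throughout, and the sum was 479.5 and 402.5 against 356.5 and 375. Of 10 thymocyte and DP genes 8 were lower and 1 was higher, the pre-T-cell receptor gene Ptcra (1.72 ± 0.08, adjusted p = 8.07e-07), with Cd8b1 falling by 2.19 ± 0.08 (adjusted p = 1.57e-07) and a sum of 58310 and 58160 against 29630 and 30050. The part of these cell types in the members' values was not tested.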

How the data were processed

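RNA of 4 samples (100 ng of total RNA each) was hybridized to Affymetrix Mouse 430 2.0 arrays after 3' in vitro transcription, per the labels' protocols. For each probe set, a single linear intensity was deposited, already brought to nearly the same distribution on all arrays, which hides any shift common to all genes. The method, per the submitters' processing notes, was RMA; its version is not given. Array minima of 0.08 to 0.17 are low for linear RMA values, so how the values were summarised is not settled and dim values carry little information. Detection calls were not used here.

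Values were log2-transformed with no offset and no filter, and 64 control probe sets were left out. Probe sets were named from the platform annotation (34945 with 1 symbol, 932 with several, 9160 with none). Tumour minus normal was fitted with limma 3.58.1 in R 4.3.3 over all 45037 probe sets, with a trend and robust prior, because replicates differed more where signal was low (median SD, log2, 1.31 for the dimmest 25% of probe sets and 0.10 for the most intense 25%). P-values were adjusted by Benjamini-Hochberg at 0.05. A gene was called where at least 1 of its own probe sets passed and none passed the other way. Errors are limma's SE. The number of arrays limits the precision. The fit was tested on simulated data, where the default prior made no calls and the trend and robust prior made more false calls than the threshold implies, most of all beside large changes. The simulated spread depended on signal level alone, and changes were planted only at a mean log2 of at least 7. The simulation therefore does not settle which prior suits these data or dim probe sets. Members, lists, tests and the prior were chosen with earlier results of these data known, and no list was given a test as a whole.

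Named genes were the members, up to 2 genes per list with the largest called difference (arrays not overlapping, and a group mean log2 that reached 7) or else the most intense, Notch1, Dtx1 and Cd8a, and the 5 genes most like Csf1r. Genes outside this rule (Cd4, Lyz1, Csf1, Il34, Csf3r, Irf8, Cebpa, Gfi1, Egr2, Cfp, C3ar1, Axl, Alas2, Ptcra, Cd22, Klrd1, Itgax, Mpo, Elane, Epcam, Krt5, Krt8, the dendritic markers called in neither direction, the chromosomal neighbours and genes named as dim) were chosen after their values were seen. Alternatives were other priors, scalings, filters, an offset of 16, a background floor, a threshold of 0.01, 1 probe set per gene, the replicate block and each array left out.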

Additional observations from a re-analysis of the deposited data

How the results depend on the processing

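The number of member probe sets called higher (10) was 0 with limma's default prior, 6 with 1 probe set per gene and the trend and robust prior, and 4 with 1 probe set per gene and the default prior; the last 2 settings hold only 9 member probe sets. The number of member genes called higher (6) was 0 with the default prior. Leaving out 1 array gave 7 to 11 probe sets and 4 to 7 genes. The difference of Itgam reversed to 0.01 with background as a floor and to 0.49 without tumour replicate 2, with -4.74 without tumour replicate 1 (range -4.74 to 0.49 with 1 array left out); below background, values carry no order, and its cause was not tested. Spike control scaling gave 8 probe sets, all higher, and the other scalings, the offset and the floor gave 10. The arrays share replicate numbers, but same-numbered arrays deviated together at r = 0.01 over all probe sets and 0.25 over the 10772 with a mean log2 of at least 7, and no label pairs them. With the replicate block 10 probe sets and 6 genes were called. Signal near background limits Cd68, Spi1, Itgam and the normal values of C1qa, C1qc and Adgre1. It also limits the normal values of C1qb on 1417063_at and 1437726_x_at and of Csf1r on 1419873_s_at.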
